A study of Mus musculus with 6 samples.

Results

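The genes described here are 43 genes of T cells and cytotoxic lymphocytes, chosen by name with earlier results of these data known. They cover chains of the T cell receptor complex, costimulatory receptors, signalling proteins, killing effectors, natural killer (NK) receptors and lineage transcription factors. Of these, 42 had a probe set with exactly 1 annotated symbol among the 19938 genes tested, and the kinase gene Lck was not analysed here. The arrays measured total RNA of crypts released from mouse intestine with EDTA, from 3 YAP transgenic mice (YAP Tg) and 3 control mice, with 1 array per mouse. By the series title, the transgenic mice carried YAP-S127A and Villin-rtTA. YAP-S127A is a form of the coactivator YAP that escapes inhibition by the Hippo kinases, and the villin promoter drives rtTA in the gut epithelium, where doxycycline then switches the transgene on. Doxycycline was given for 2 days. The labels call the other mice only control and do not give their alleles, nor whether they received doxycycline, so transgene and drug cannot be told apart. The sources used here give no strain, age, sex or segment of intestine.

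T cells recognise antigen through a receptor whose chains signal by way of the CD3 proteins and the zeta chain to a kinase cascade, and CD4 or CD8 assists as coreceptor. The gut lining holds a dense population of intraepithelial lymphocytes, most of them CD8-bearing T cells with a cytotoxic programme of granzymes and NK-type receptors. In the mouse, natural intraepithelial lymphocytes are known to carry little CD2, CD5 and CD28. In bulk RNA, a larger number of such cells and more RNA per cell cannot be told apart. All values below are deposited log2 signals, and each change is YAP Tg minus control.

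The lymphocyte genes were higher in YAP Tg crypts almost throughout. With limma and an adjusted p below 0.05 (Benjamini-Hochberg over all 19938 genes), 35 of 42 rose and 0 fell, where 7.5% of all genes rose and 6.7% fell. All 42 changes were positive, so 0 were lower at an unadjusted p below 0.05 too. The median change was 1.15, with quartiles of 0.79 and 1.40, while the median over all genes was 0.03, with quartiles of -0.18 and 0.16. All 3 YAP Tg values lay above all 3 control values for 39 of the 42 genes, against 16.5% of all genes. Of the 42, 26 rose at least 2-fold, against 2.6% of all genes, and 21 had changes between 1 and 1.5, a range that held 1.75% of all genes. With any 1 array left out, between 30 and 35 rose and 0 fell.

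**Figure D1:**
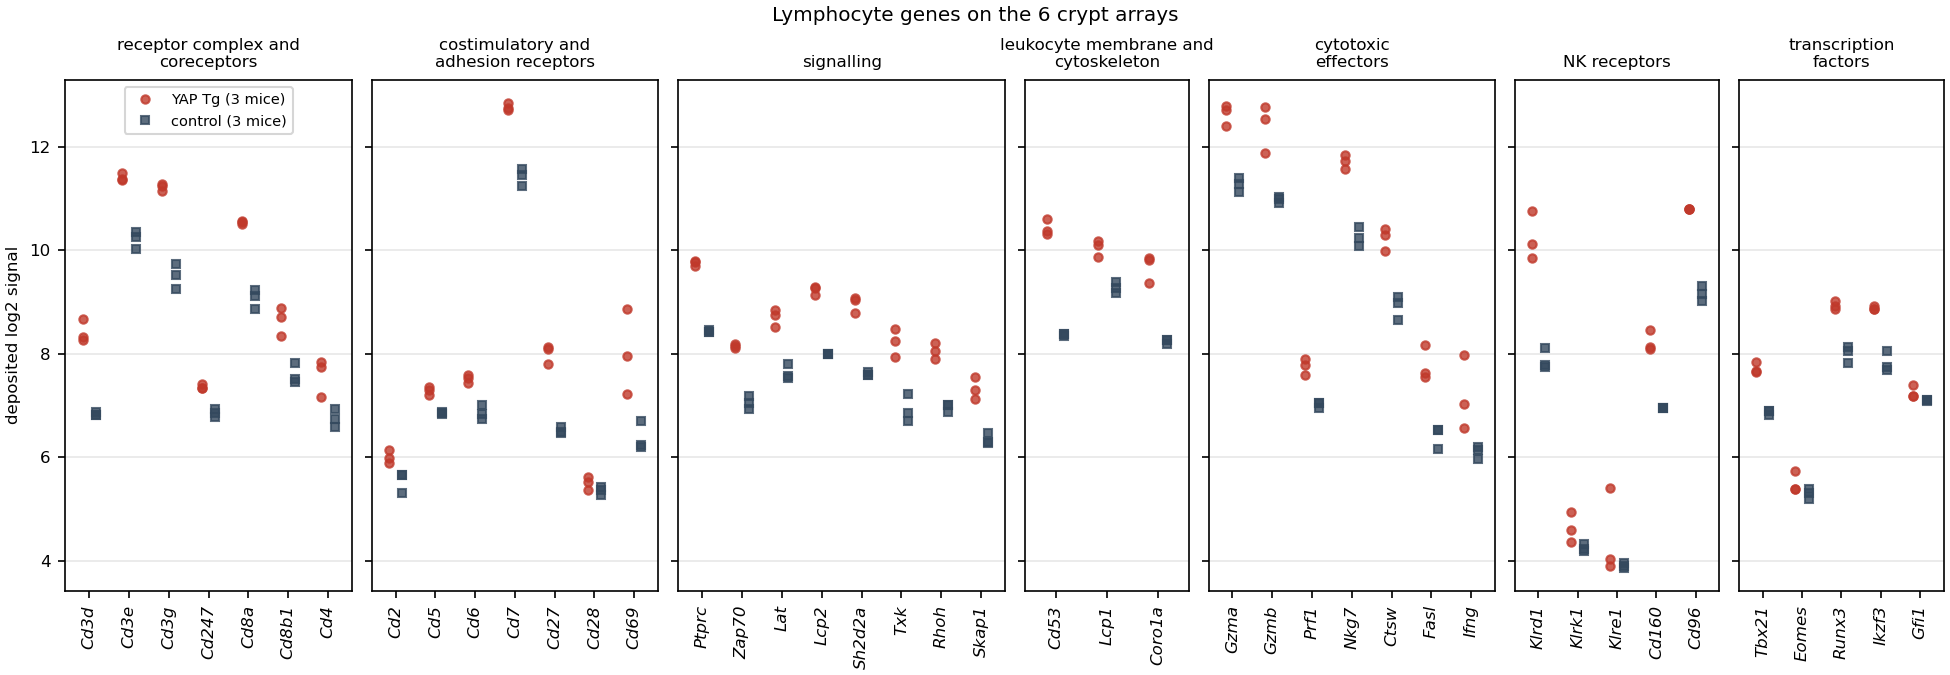
Deposited log2 signals of the 42 genes on each array, by class; circles are the 3 YAP Tg mice and squares the 3 control mice. The circles lie above the squares for 39 genes, and the groups overlap for Cd28, Klre1 and Eomes.

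All 7 genes of the receptor complex and coreceptors rose, with a median change of 1.20. Cd3e, a chain of the CD3 module that defines T cells, had 11.37, 11.49 and 11.39 in YAP Tg mice 1, 2 and 3 and 10.37, 10.02 and 10.27 in control mice 1, 2 and 3, a change of 1.20 (± 0.11 SE, adjusted p = 0.00176 by limma). Cd3g, the gamma chain, had 11.28, 11.24 and 11.15 in YAP Tg and 9.74, 9.26 and 9.53 in control mice, a change of 1.72 (± 0.13 SE, adjusted p = 0.00107 by limma). In both genes the YAP Tg mice stood closer together than the controls, and the groups were well apart. Cd3d, the delta chain, had 8.67, 8.28 and 8.33 in YAP Tg and 6.88, 6.82 and 6.83 in control mice, a change of 1.59 (± 0.12 SE, adjusted p = 0.00106 by limma). Cd247, which encodes the zeta chain, had 7.34, 7.34 and 7.41 in YAP Tg and 6.94, 6.79 and 6.86 in control mice. Its change of 0.51 (± 0.07 SE, adjusted p = 0.00771 by limma) was the smallest of the class, although its groups did not overlap either.

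Cd8a, the chain that forms the CD8 alpha homodimers found on many intraepithelial lymphocytes, had 10.56, 10.54 and 10.50 in YAP Tg and 9.24, 8.88 and 9.12 in control mice, a change of 1.46 (± 0.11 SE, adjusted p = 0.00104 by limma). Cd8b1, the beta chain of the conventional CD8 coreceptor, changed by 1.06 (± 0.17 SE, adjusted p = 0.0113 by limma). Cd4, the coreceptor of helper T cells, stood at 7.84, 7.76 and 7.16 in YAP Tg and 6.58, 6.93 and 6.73 in control mice, a change of 0.84 (± 0.20 SE, adjusted p = 0.0395 by limma). The lowest YAP Tg value, that of mouse 3, lay just above the highest control. Cd8b1 lost its call when control mouse 1 or 2 was left out (adjusted p = 0.0623 and 0.0621). Cd4 lost its own without any 1 control mouse, 1, 2 or 3 (adjusted p = 0.154, 0.0961 and 0.139) and without YAP Tg mouse 1 or 2 (0.107 and 0.0504).

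To show the regulatory sequence of genes that moved to different extents, the 250 bases upstream of the start are given for Cd3g and Cd3d, which are neighbours on 1 chromosome and rose by similar amounts, for Cd247, the smallest change of the receptor complex, and for Cd53, the second largest change of all 42 genes. They are from RefSeq on GRCm38.p6, 5′ to 3′ along the gene's strand: Cd3g at chr9:44980432-44980681 (minus strand), Cd3d at chr9:44981536-44981785 (plus), Cd247 at chr1:165788431-165788680 (plus) and Cd53 at chr3:106790150-106790399 (minus). Capitals mark matches on either strand to the motifs AGGAAG (ETS factors), TGTGGT (RUNX), AGGTGT (T-box factors) and GGAATG (TEAD, the DNA-binding partners of YAP).
Cd3g: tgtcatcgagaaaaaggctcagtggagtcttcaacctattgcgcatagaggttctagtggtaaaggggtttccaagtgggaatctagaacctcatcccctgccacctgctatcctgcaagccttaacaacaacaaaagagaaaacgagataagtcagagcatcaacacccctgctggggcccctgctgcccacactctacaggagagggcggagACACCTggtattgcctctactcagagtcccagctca
Cd3d: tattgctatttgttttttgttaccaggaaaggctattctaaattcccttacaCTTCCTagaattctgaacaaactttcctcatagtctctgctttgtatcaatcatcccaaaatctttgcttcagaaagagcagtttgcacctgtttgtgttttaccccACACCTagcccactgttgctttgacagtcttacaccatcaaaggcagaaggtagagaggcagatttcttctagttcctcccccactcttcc
Cd247: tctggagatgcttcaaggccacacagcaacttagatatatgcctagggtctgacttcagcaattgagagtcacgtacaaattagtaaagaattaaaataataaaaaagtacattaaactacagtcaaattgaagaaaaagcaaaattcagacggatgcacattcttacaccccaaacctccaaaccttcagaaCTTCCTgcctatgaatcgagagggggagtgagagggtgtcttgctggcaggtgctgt
Cd53: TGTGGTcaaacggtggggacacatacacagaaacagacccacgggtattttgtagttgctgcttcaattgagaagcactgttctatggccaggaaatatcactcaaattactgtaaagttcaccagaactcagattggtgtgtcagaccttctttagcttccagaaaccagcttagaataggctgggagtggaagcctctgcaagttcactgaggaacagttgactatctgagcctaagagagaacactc
Cd3g held 1 match (T-box), Cd3d held 2 (ETS and T-box), Cd247 held 1 (ETS) and Cd53 held 1 (RUNX), and the TEAD letters were in none of these 4 windows. Windows were at hand for 30 of the 42 measured genes, 40 windows in all since some genes have several starts. The ETS letters were in 50.0% of these 40 windows and in 29.5% of the 32851 windows of all genes, the RUNX letters in 32.5% and 14.0%, the TEAD letters in 20.0% and 12.6%, and the T-box letters in 17.5% and 11.8%. The RUNX and T-box motifs can overlap each other. A match of letters is a description and not a binding site.

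The 8 measured signalling genes rose together, between 0.98 and 1.37, the narrowest range of the 7 classes. Ptprc, the phosphatase CD45 carried by all white blood cells, had 9.78, 9.70 and 9.79 in YAP Tg and 8.46, 8.42 and 8.43 in control mice, a change of 1.32 (± 0.06 SE, adjusted p = 0.000482 by limma). Zap70, the kinase recruited to the receptor chains, had 8.19, 8.15 and 8.11 in YAP Tg and 7.19, 6.94 and 7.06 in control mice, a change of 1.09 (± 0.09 SE, adjusted p = 0.00120 by limma). Both genes were nearly level among the YAP Tg mice. The adaptors of the same cascade moved alike: Lat by 1.07, Lcp2, which encodes SLP-76, by 1.24, Sh2d2a by 1.37 and Skap1 by 0.98. The Tec family kinase gene Txk changed by 1.29 and Rhoh, a GTPase of blood cells that receptor signalling needs, by 1.09. These 6 genes had adjusted p-values of 0.000685 to 0.00806 by limma, and Txk lost its call without control mouse 3 (adjusted p = 0.0505).

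Costimulatory and adhesion receptors were an uneven class: 5 of 7 rose, with a median change of 0.66 and a range of 0.15 to 1.63, and 3 of 7 rose without control mouse 1, 2 or 3. Cd7, an immunoglobulin-family receptor of T and NK cells, had 12.85, 12.75 and 12.71 in YAP Tg and 11.57, 11.25 and 11.45 in control mice, a change of 1.35 (± 0.10 SE, adjusted p = 0.00106 by limma). Cd27, a receptor of the tumour necrosis factor family, had 8.10, 8.13 and 7.81 in YAP Tg and 6.59, 6.48 and 6.47 in control mice, a change of 1.50 (± 0.11 SE, adjusted p = 0.00101 by limma). These changes were like those of the receptor complex. Cd5, an inhibitory receptor of T cells, had 7.30, 7.36 and 7.21 in YAP Tg and 6.85, 6.84 and 6.88 in control mice, a change of 0.43 (± 0.07 SE, adjusted p = 0.0126 by limma). Its relative Cd6 changed by 0.66 (± 0.09 SE, adjusted p = 0.00808 by limma). The adhesion receptor gene Cd2 had 5.89 to 6.15 in YAP Tg and 5.31 to 5.65 in control mice, a difference of 0.47 that was not called (limma's adjusted p = 0.0529). Cd28, the main costimulatory receptor of naive T cells, had 5.62, 5.53 and 5.37 in YAP Tg and 5.28, 5.44 and 5.37 in control mice, a difference of 0.15 (limma's adjusted p = 0.332), and its groups overlapped. Cd5 lost its call without any 1 control mouse, 1, 2 or 3 (adjusted p = 0.0666, 0.0647 and 0.0553).

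Of the 3 genes of leukocyte membrane and cytoskeleton, all rose. Cd53, a tetraspanin of white blood cells, had 10.61, 10.38 and 10.31 in YAP Tg and 8.36, 8.38 and 8.38 in control mice, a change of 2.06 (± 0.09 SE, adjusted p = 0.000471 by limma). Coro1a, an actin regulator of leukocytes, changed by 1.44 (± 0.14 SE, adjusted p = 0.00229 by limma). Lcp1, which encodes the actin bundler L-plastin, changed by 0.77 (± 0.11 SE, adjusted p = 0.00767 by limma). These genes are shared by other white blood cells and do not by themselves mark T cells.

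Of the 7 cytotoxic effector genes 6 rose, with a median change of 1.36. Gzma, the granule protease granzyme A, had 12.79, 12.71 and 12.40 in YAP Tg and 11.39, 11.13 and 11.29 in control mice, a change of 1.36 (± 0.13 SE, adjusted p = 0.00204 by limma). Gzmb, granzyme B, had 12.76, 12.55 and 11.88 in YAP Tg and 10.99, 10.92 and 11.04 in control mice, a change of 1.42 (± 0.22 SE, adjusted p = 0.0108 by limma). The granzyme signals were already bright in control crypts, and YAP Tg mouse 3 was the lowest of its group in both. Prf1, the pore-forming protein perforin, had 7.79, 7.90 and 7.60 in YAP Tg and 7.05, 6.96 and 7.05 in control mice, and its change of 0.74 (± 0.10 SE, adjusted p = 0.00566 by limma) was the smallest of the class. The granule protein gene Nkg7 changed by 1.46, the cysteine protease gene Ctsw by 1.31 and Fasl, the death ligand, by 1.37, with adjusted p-values of 0.00145 to 0.00744 by limma. Ifng, the cytokine interferon gamma, had 7.99, 7.03 and 6.58 in YAP Tg and 6.20, 5.97 and 6.14 in control mice. Its groups did not overlap, but its difference of 1.09 (SE 0.34) was not called (limma's adjusted p = 0.0913), and the YAP Tg mice lay far apart. Gzmb lost its call without any 1 control mouse, 1, 2 or 3 (adjusted p = 0.0592, 0.0599 and 0.0570).

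NK receptors held the largest change and some of the smallest. Klrd1, the CD94 chain that pairs with NKG2 receptors, had 10.76, 9.85 and 10.13 in YAP Tg and 8.11, 7.75 and 7.78 in control mice, a change of 2.37 (± 0.24 SE, adjusted p = 0.00271 by limma). Cd96, a receptor for nectin-family ligands on T and NK cells, had 10.81, 10.79 and 10.79 in YAP Tg and 9.32, 9.02 and 9.16 in control mice, a change of 1.63 (± 0.09 SE, adjusted p = 0.000593 by limma). Cd160, a receptor found on intraepithelial lymphocytes, had 8.47, 8.13 and 8.10 in YAP Tg mice and 6.96 in each control mouse, a change of 1.27 (± 0.11 SE, adjusted p = 0.00176 by limma). These 3 genes rose and kept their calls with any 1 array left out. Klrk1, which encodes NKG2D, had 4.60, 4.94 and 4.37 in YAP Tg and 4.23, 4.32 and 4.20 in control mice, and its difference of 0.39 was not called (limma's adjusted p = 0.147). Klre1 had 5.40, 3.91 and 4.04 in YAP Tg and 3.96, 3.91 and 3.87 in control mice, so its difference of 0.54 (limma's adjusted p = 0.399) lay in YAP Tg mouse 1. The signals of Klrk1 and of Klre1 outside that mouse lay below the typical signal of the presumed array controls (mean of the medians 5.17 on YAP Tg and 4.97 on control arrays), so these probe sets say little about either gene.

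Among transcription factors 3 of 5 rose, with a median change of 0.85. Runx3, needed for CD8-lineage T cells, had 8.94, 9.02 and 8.86 in YAP Tg and 8.05, 7.83 and 8.14 in control mice, a change of 0.93 (± 0.10 SE, adjusted p = 0.00331 by limma). Ikzf3, the lymphocyte factor Aiolos, changed by 1.05 (± 0.11 SE, adjusted p = 0.00293 by limma). Tbx21, the factor T-bet that drives interferon gamma and cytotoxic genes, had 7.85, 7.66 and 7.66 in YAP Tg and 6.90, 6.81 and 6.90 in control mice, a change of 0.85 (± 0.08 SE, adjusted p = 0.00223 by limma). Eomes, the relative of T-bet, had 5.73, 5.39 and 5.39 in YAP Tg and 5.30, 5.21 and 5.39 in control mice, a difference of 0.20 (limma's adjusted p = 0.297). Gfi1, a repressor used by lymphocytes and also by secretory cells of the crypt epithelium, had 7.18, 7.19 and 7.40 in YAP Tg and 7.10, 7.12 and 7.10 in control mice, a difference of 0.15 (limma's adjusted p = 0.277).

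**Figure D2:**
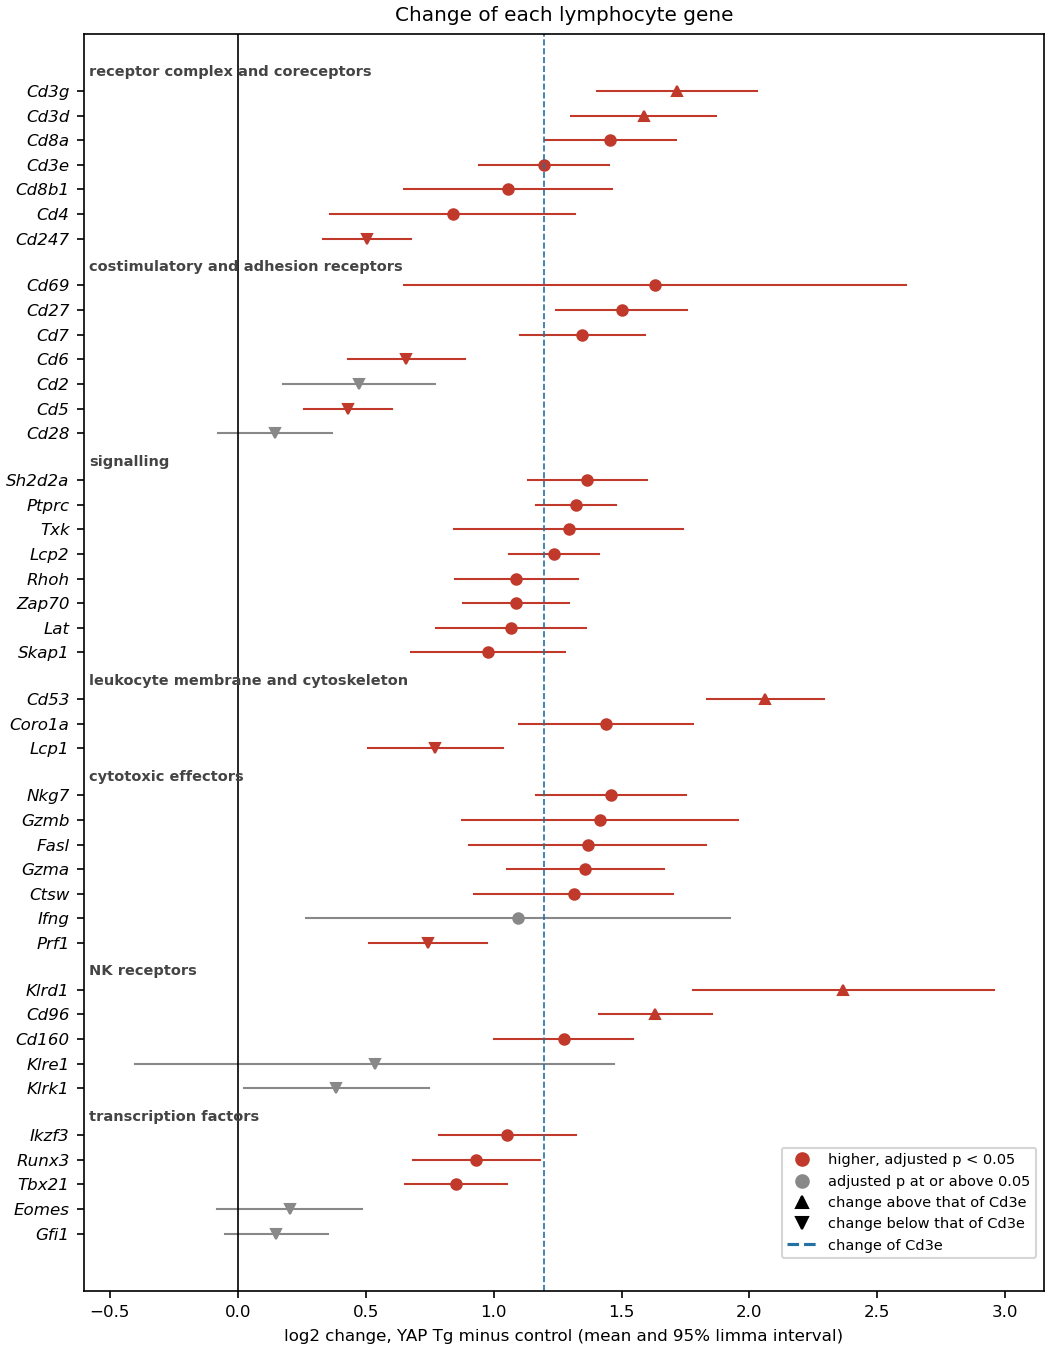
Log2 change of each gene, YAP Tg minus control, with its 95% interval from limma, sorted within classes; grey genes did not pass the test. The dashed line marks Cd3e at 1.20; triangles mark the 5 genes whose change was above it and the 11 below it by a test of the difference, of which Cd28, Eomes, Klrk1 and Klre1 were near or below array background.

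Whether the genes changed by one common factor was tested by subtracting the Cd3e value of the same array from every gene and fitting limma again over the other 19937 genes. An equal factor for a cell type's transcripts would give differences of 0, but only for transcripts of that cell type alone. Gfi1 is also used by secretory crypt cells, and Ptprc, Cd53, Coro1a and Lcp1 by other white blood cells. The NK receptor and cytotoxic effector genes, Klrd1, Cd96 and Prf1 among them, are not confined to T cells either. For these genes a difference from Cd3e need not be a departure from a common factor in T cells. Of 41 genes, 25 were not separated from Cd3e, with differences between -0.36 and 0.43. The 95% interval of each of the 41 differences reached 0.37 to 0.45 to either side, so these 25 are not shown to have changed as much as Cd3e. All 8 signalling genes and 6 of the 7 cytotoxic genes were among the 25. A larger change than that of Cd3e was called for 5 genes: Klrd1 (1.17, limma's adjusted p = 3.16e-07), Cd53 (0.86, 2.62e-05), Cd3g (0.52, 0.00729), Cd96 (0.43, 0.0233) and Cd3d (0.39, 0.0470). A smaller change was called for 11, of which 7 passed the floor for signal over array background used below: Gfi1 (-1.05), Cd5 (-0.77), Cd2 (-0.72), Cd247 (-0.69), Cd6 (-0.54), Prf1 (-0.45) and Lcp1 (-0.43). The other 4, Cd28, Eomes, Klrk1 and Klre1, had signals near or below the presumed array controls, where a rise may not be measurable, so their calls are not read as a smaller change. Cd2 passed the floor only narrowly: it had 5.31 in control mouse 1, where the presumed array controls had a median of 4.99. With array background subtracted, its difference from Cd3e was -0.21 (limma's adjusted p = 0.549). The call of Cd2 is therefore not read as a smaller change either. Over all genes, 0.963% were called above and 95.5% below Cd3e, since few genes rose as much, and the adjustment therefore raised p-values very little. All of these differences share the noise of Cd3e, which is known from only 6 arrays. Because limma pools variances over genes, it treats this shared noise as if each gene had measured it separately. The p-values relative to Cd3e are therefore likely too small and the intervals too narrow, and the same holds for other genes subtracted.

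The calls above or below Cd3e were not equally firm: the 5 above became 3 without YAP Tg mouse 1 and 2 without control mouse 3. With any 1 array left out, Klrd1 and Cd53 stayed above. Of the 7 genes past the background floor, Gfi1, Cd5, Cd247 and Cd2, the last of them close to background, stayed below. The calls of Cd3g and Cd6 were lost without control mouse 3 (adjusted p = 0.0527 and 0.0607), and those of Cd3d, Cd96, Lcp1 and Prf1 without 2 to 4 of the 6 arrays, with adjusted p of up to 0.285, 0.118, 0.153 and 0.112. With Cd3g in place of Cd3e, 1 gene, Klrd1, was above and 23 were below, and with Ptprc 4 were above and 15 below. The number of genes called thus depended on the gene chosen for comparison, whereas Klrd1 stood above in each of the 3. Shares over all genes were counted for Cd3e only, so the counts with Cd3g and Ptprc cannot be set against such a share.

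**Figure D3:**
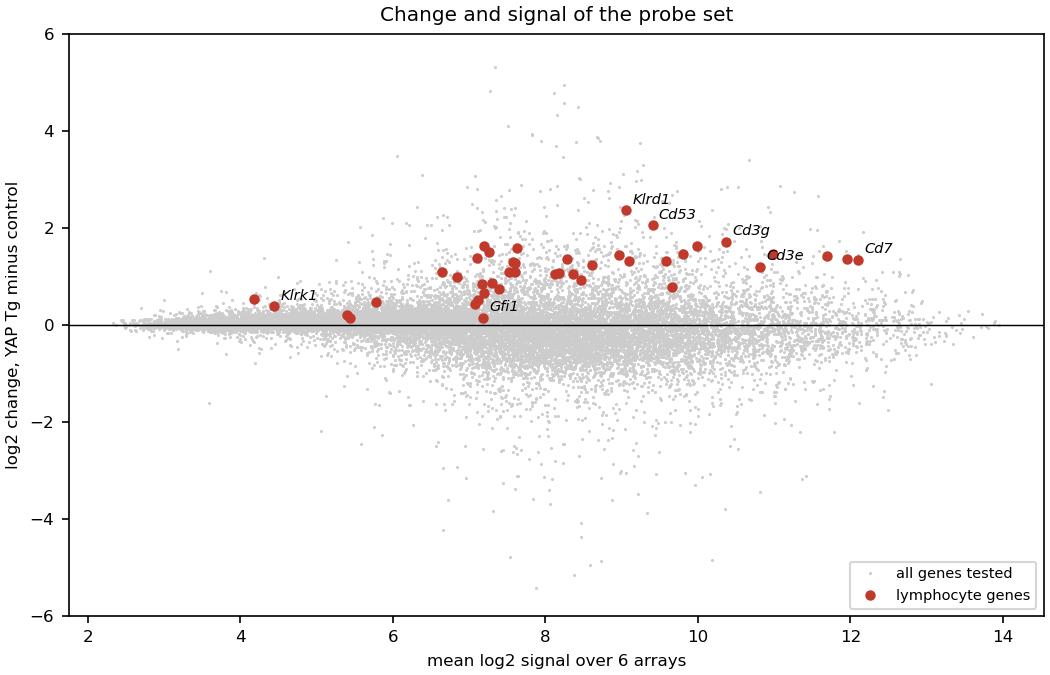
Log2 change, YAP Tg minus control, against the mean log2 signal over the 6 arrays for all 19938 genes (grey) and the 42 lymphocyte genes (red). Klrd1 (2.37) and Cd53 (2.06) lie highest among the lymphocyte genes, and Gfi1 (0.15) and Cd28 (0.15) lowest.

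The size of the change went with the brightness of the probe set. Across the 42 genes Pearson's r between mean signal and change was 0.62 and Spearman's rho 0.66, a description over genes that share the same 6 arrays. The 21 genes with a mean signal of at least 7.62 all rose, with changes between 0.77 and 2.37 and a median of 1.36. Of the 21 dimmer genes 14 rose, with changes between 0.15 and 1.63 and a median of 0.84. Of the 11 genes below Cd3e, 10 were among the dimmer ones. To see how far the values depend on array background, the fit was repeated, as an alternative chosen after seeing the data, on linear signals less each array's median over the presumed array controls. Then 38 genes had signals clear of the floor, which left out Cd28, Klrk1, Klre1 and Eomes. Of the 38, 36 rose and 0 fell, where 1252 of all 14377 genes left rose and 1201 fell. The median change of the 38 was 1.36, with a range of 0.13 to 2.53, while the median over the 14377 genes left was -0.11. Relative to Cd3e, 3 of 37 genes then stayed below, Cd247 (-0.61, limma's adjusted p = 0.0126), Cd5 (-0.71, 0.00584) and Gfi1 (-1.09), and 8 stood above. The 8 were Klrd1 (1.31), Cd53 (0.95), Cd69 (0.88), Cd27 (0.67), Cd3d (0.67), Fasl (0.56), Cd3g (0.54) and Cd96 (0.47), where 1.27% of all genes left were above and 90.9% below.

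**Figure D4:**
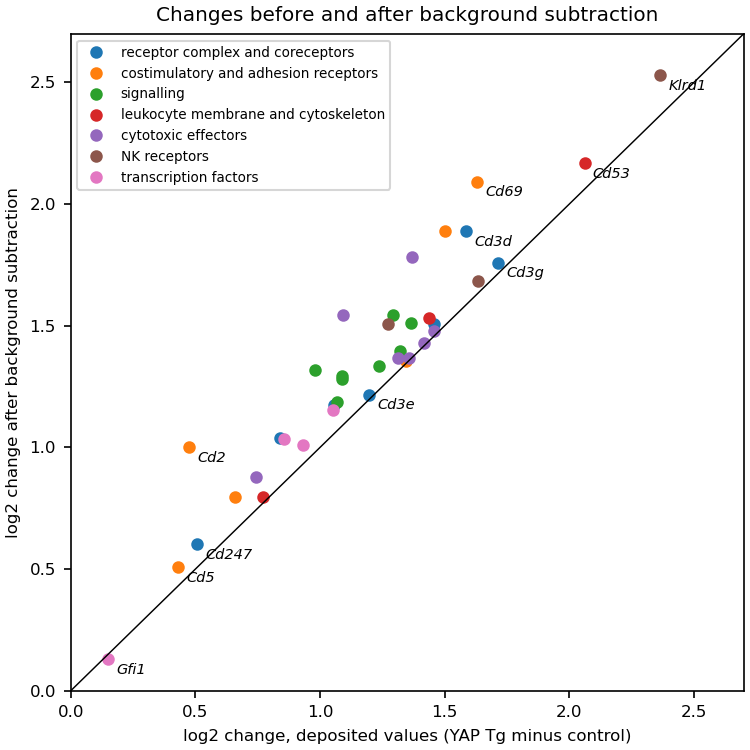
Log2 change of the 38 genes after background subtraction against that from the deposited values, coloured by class; the line marks equality. Cd2 moved to 1.00, while Cd247 (0.60), Cd5 (0.51) and Gfi1 (0.13) stayed near their deposited values.

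The YAP Tg mice agreed closely on some genes and lay far apart on others. The SD over the 3 YAP Tg mice had a median of 0.16 over the 42 genes, the same as over all genes, and was 0.01 for Cd96, 0.03 for Cd8a, 0.05 for Ptprc and 0.06 for Cd3e. It was above 0.4 for 5 genes, Klre1 (0.83), Cd69 (0.82), Ifng (0.72), Klrd1 (0.47) and Gzmb (0.46), a share of 11.9% against 12.2% of all genes. Cd69, a receptor displayed on activated and on tissue-resident lymphocytes, had 8.86, 7.96 and 7.22 in YAP Tg mice 1, 2 and 3 and 6.71, 6.24 and 6.20 in control mice. Its change of 1.63 (± 0.40 SE, adjusted p = 0.0464 by limma) passed the test, but the call was lost without any 1 control (adjusted p = 0.116, 0.165 and 0.166 without mouse 1, 2 and 3) and without YAP Tg mouse 1 or 2 (0.0561 and 0.0514). Mouse 1 was the highest YAP Tg mouse in 27 of 42 genes, or 64.3%, against 32.0% of all genes, and mouse 3 the lowest in 27, or 64.3%, against 18.0%. Set against the control mean, the 42 genes had a median difference of 1.32 in mouse 1, 1.14 in mouse 2 and 1.09 in mouse 3. For the receptor complex these medians were 1.15, 1.27 and 1.30, and for the cytotoxic effectors 1.59, 1.21 and 1.13. Presumed array controls had a median of 5.33, 5.15 and 5.03 on the same arrays and 4.97 to 4.99 on control arrays; its part in these differences was not tested.

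Further lists of genes known from these cells were counted beside the 7.5% higher and 6.7% lower over all genes. Of 29 further genes of the T cell receptor pathway 16 rose and 0 fell by limma's test (23 higher and 3 lower at an unadjusted p below 0.05), with a median change of 0.47. They included Fyn, a Src-family kinase (1.18), the phosphatase gene Ptpn22 (1.38), Rasgrp1, which activates Ras (1.02), and the adaptor gene Sla (1.34), with limma's adjusted p between 0.000519 and 0.00178. Of 17 genes of residence and homing in the epithelium 13 rose and 0 fell (13 and 0 unadjusted), with a median of 0.88. Ccr9, the receptor for the gut chemokine CCL25, had 9.95, 9.91 and 9.68 in YAP Tg and 8.55, 8.38 and 8.47 in control mice, a change of 1.38 (± 0.10 SE, adjusted p = 0.00101 by limma). Gpr18 changed by 1.57, the selectin ligand gene Selplg by 1.49 and the integrin gene Itgb2 by 1.26. Of 23 further granule and killing genes 8 rose and 0 fell (12 and 0 unadjusted), with a median of 0.38. Unc13d, needed for granule release, changed by 2.11, the cystatin gene Cst7 by 1.51, the granule proteoglycan gene Srgn by 1.44 and the chemokine gene Ccl5 by 1.04. Leaving out control mouse 1, 2 or 3 left 9, 9 and 11 of the 16 pathway calls in number.

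Of 16 further NK receptor genes, 5 of them below the presumed array controls on all arrays, 6 rose and 0 fell (8 and 0 unadjusted). The median was 0.55. The genes that rose included Tyrobp, the signalling adaptor DAP12 (1.71), the receptor gene Il2rb (1.42), Cd226 (0.99) and Klrb1f (0.60), but 2, 3 and 2 were left without control mouse 1, 2 or 3. These genes do not by themselves mark NK cells. Cd226 lost its call without any 1 control (adjusted p of up to 0.0604) and Klrb1f without control mouse 1 or 3 (up to 0.0686). Of 15 helper and regulatory T cell genes, 4 of them below the presumed array controls on all arrays, 1 rose, a share near the 7.5% over all genes. It was the T cell transcription factor gene Gata3 (0.38, limma's adjusted p = 0.0165). Of the 15, 0 fell (2 higher and 0 lower unadjusted), and the median was 0.15. Gata3 lost its call without control mouse 1, 2 or 3 (adjusted p = 0.0795, 0.0744 and 0.0703), and without YAP Tg mouse 2 there were 4 higher. T cell receptor constant region genes, 14 symbols listed, were not analysed here.

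Genes listed as epithelial signals to these lymphocytes moved both ways, and bulk RNA does not tell which cells expressed them. Of 16 measured, 2 rose and 4 fell (5 and 5 unadjusted). Ccl25, the ligand of CCR9, had 10.37, 11.02 and 11.47 in YAP Tg and 12.58, 12.50 and 12.37 in control mice, a change of -1.53 (± 0.27 SE, adjusted p = 0.0151 by limma), so ligand and receptor genes moved in opposite directions. Raet1d, a ligand of NKG2D, changed by -0.41 at a signal below the array controls, Icam1, an adhesion ligand, by 0.93, and the cytokine gene Tgfb1 by 0.71. Each of these 4 calls was lost without at least 2 of the 3 control mice, with adjusted p of up to 0.0777 for Ccl25, 0.0883 for Raet1d, 0.0823 for Icam1 and 0.0732 for Tgfb1. Without control mouse 1 none of the 16 was called in either direction.

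Markers of cell types that a crypt preparation can hold were read beside these results. All 7 measured T lymphocyte markers rose, 6 of which are among the 42 genes, and their summed linear signal was 6302 to 6747 in YAP Tg and 2328 to 2900 in control mice. Of 11 B lymphocyte and plasma cell markers 0 rose and 0 fell by limma's test (1 and 1 unadjusted), with sums of 1409 to 1677 in YAP Tg and 1354 to 1456 in control mice. Sdc1, the brightest and singled out after seeing the data, had 9.05 to 9.34 in YAP Tg and 9.24 to 9.46 in control mice. It weighs heavily in these sums, which therefore say little about the dimmer markers. Of those, Cd79b differed by 0.46 and Ms4a1 by -0.33 (limma's adjusted p = 0.102 and 0.0900). Of 15 macrophage and myeloid markers 5 rose and 1 fell (8 and 1 unadjusted), with sums of 1597 to 2027 in YAP Tg and 1549 to 1833 in control mice. Without Lyz2, the brightest of them, singled out after its values were seen, the sums were 979.4 to 1320 in YAP Tg and 785.5 to 880.4 in control mice and did not overlap. Those that rose included Csf1r, the macrophage growth factor receptor (0.85, limma's adjusted p = 0.00377), and C1qb, a complement chain (1.48, 0.0168, but 0.0723 and 0.0831 without control mouse 1 or 3). There was 1 higher with control mouse 1 or 3 left out, and 3 without YAP Tg mouse 1 or control mouse 2. Mast cell markers, 6 in number, and 6 endothelial markers had 0 calls (1 higher and 0 lower unadjusted in each), with sums of 783.8 to 1593 in YAP Tg and 383.5 to 909.4 in control mice for the mast cell list, and 309.6 to 370.2 in YAP Tg and 272.8 to 298.1 in control mice for the endothelial list. Of 11 mesenchymal markers 1 rose, Vim, which leukocytes also express (0.95, with an adjusted p of up to 0.0986 without 1 control), and 0 fell (1 and 0 unadjusted), with sums of 2022 to 2397 in YAP Tg and 1358 to 1829 in control mice. Of 11 epithelial markers 5 rose and 1 fell (6 and 1 unadjusted), with sums of 59500 to 60720 in YAP Tg and 43000 to 45730 in control mice. Such linear sums weigh the brightest markers most and do not mean that all markers rose. Krt18 (1.53) and Krt20 (1.09), keratins of simple epithelium, rose and Cdx1, an intestinal transcription factor, fell by 0.97, while Epcam, a surface marker of all epithelial cells, differed by 0.18 (limma's adjusted p = 0.250). There were 2 higher without control mouse 1, control mouse 3 or YAP Tg mouse 3, and 3 without control mouse 2 or YAP Tg mouse 1, and Cdx1 lost its call without control mouse 3 (adjusted p = 0.0512), whereas Epcam was called higher without YAP Tg mouse 2 (adjusted p = 0.0378). The part of the myeloid, mast cell, mesenchymal and epithelial markers in the lymphocyte results was not tested.

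**Figure D5:**
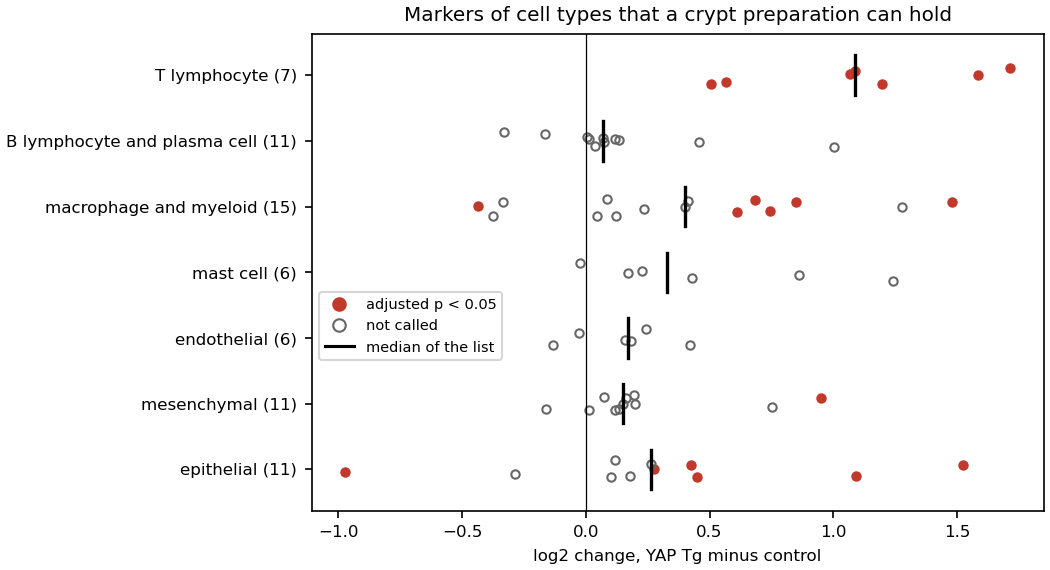
Log2 change, YAP Tg minus control, of each marker of 7 cell types; filled points passed limma's test, and black bars are list medians. The T lymphocyte markers have a median of 1.09 and the B lymphocyte and plasma cell markers one of 0.07.

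For the series as a whole, median signals of all genes were 6.74 to 6.79, and arrays correlated at 0.978 to 0.989 among YAP Tg and 0.996 to 0.997 among control mice across genes. Yap1 did not rise on its probe set (-0.24, limma's adjusted p = 0.184), and the sources used here do not say whether that probe set covers the transgene, so it does not check the labels. With 3 arrays in a group, precision is limited by their number.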

How the data were processed

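Total RNA of intestinal crypts from 3 YAP Tg and 3 control mice was hybridised to Affymetrix mouse arrays, 1 array per mouse, with groups taken from the sample titles. The authors deposited log2 signals of 35556 probe sets, and the submitters' processing notes name Affymetrix Expression Console (version 1.1). The sources used here do not say how background was corrected or arrays were normalized. That the deposited signals are on a log2 scale follows from their range, 1.99 to 14.4. The 6617 probe sets with numbers lower than any annotated one were presumed to be array controls. Of the other 28939, 21789 had 1 symbol, and 21698 matched a RefSeq gene (GRCm38.p6, names and gene order only). Of several probe sets for a gene the brightest on average was kept, and no lymphocyte gene described had several.

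Differences were tested two-sided with limma's lmFit and eBayes (version 3.58.1, under R 4.3.3), without covariates, and adjusted by Benjamini-Hochberg over all genes at 0.05; intervals are at 95%. The script was tested on simulated data. The second fit subtracted Cd3e on each array. Background subtraction used a floor of 8 on the linear scale. The labels number the mice 1 to 3 in both groups without saying that a number is shared. The numbers were not taken as pairs. Nothing says whether mice were littermates. The p-values set each group difference against the spread between these samples within groups, moderated over all genes.

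The members, classes and accompanying lists were chosen with earlier results of these data known. All members may be named; of each other list, up to 4 genes past the test with the smallest p, or up to 2 where none passed, and Yap1 and Epcam. Alternatives were leaving out each array, a replicate block, quantile normalization, median centring, a filter on dim genes, a trended and robust prior, array weights, averaged probe sets, a threshold of 0.01, other genes subtracted and background subtraction.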

Additional observations from a re-analysis of the deposited data

How the results depend on the processing

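The count of 35 lymphocyte genes higher and 0 lower held within 1.5 times under every alternative run, between 30 and 36 higher and 0 lower, while over all genes 1495 higher and 1336 lower became 975 and 727 with a replicate block, 2459 and 3481 with array weights, 661 and 386 at a threshold of 0.01, and between 669 and 2802 higher and 369 and 3889 lower with 1 array left out. Of the costimulatory receptors 3 rose at the threshold of 0.01 and 3 to 5 with 1 array left out. Relative to Cd3e, 5 genes above became 3 with a replicate block, 11 with array weights, 1 with Cd3g subtracted and 8 after background subtraction, and 2 to 6 with 1 array left out (2 without control mouse 3, 3 without YAP Tg mouse 1). The 11 below became 23 with Cd3g subtracted and 3 after background subtraction, and 8 to 13 with 1 array left out. With Cd3g subtracted, Cd3d and Cd96 turned to -0.13 and -0.084, neither called. The share of all genes called was not counted with Cd3g subtracted. With 1 array left out, T cell receptor pathway genes ranged from 9 to 21 higher and 0 to 3 lower, residence and homing genes from 9 to 13 and 0 to 1, granule genes from 6 to 11 and 0 to 1, NK receptor genes from 2 to 8 and 0 to 1, helper genes from 0 to 4 higher, and epithelial signals from 0 to 4 higher and 0 to 3 lower; the calls of lower genes in the first 4 of these lists came without YAP Tg mouse 2. With a replicate block, helper genes fell to 0 higher and epithelial signals to 1 lower, and the block left 33 of the 42 genes higher. Same-numbered mice deviated from their group means with correlations of -0.131, 0.0124 and 0.0983 across genes. Those of unlike-numbered mice ranged from -0.135 to 0.12. With 3 mice in a group, such values cannot tell whether equal numbers shared a litter or day. Cd2 passed the test with the filter on dim genes and with the trended prior (adjusted p = 0.0461 and 0.0428), and Ifng after background subtraction (0.0487). The cause was not tested for any of these. Members with signals near the array controls, Klrk1 and Klre1 above all, are limited by signal over background.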

Other observations

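Among the 42 genes, several are direct neighbours in the RefSeq order of protein-coding genes, and neighbours did not all change alike. Cd5 and Cd6 on chromosome 19 both rose, by 0.43 and 0.66, less than the lower quartile of 0.79 over the 42 genes. Cd8b1 and Cd8a on chromosome 6 changed by 1.06 and 1.46, and the run of Cd3g, Cd3d and Cd3e on chromosome 9 by 1.72, 1.59 and 1.20. In the NK gene cluster on chromosome 6, Klrd1 rose by 2.37 between Klre1 and Klrk1, whose probe sets stood near or below the array controls and did not pass the test.

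Some deposited values are exactly equal on several arrays. This holds for 12 of the 42 genes and for 29.5% of all genes. Lcp2 and Cd160 have 1 value on all 3 control arrays, as do 433 of all genes, so their control SD is 0. The labels do not say which processing step gave equal values.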
